A study of Rattus norvegicus with 20 samples.

Results

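Tfap2b (ENSRNOG00000011823), Nfasc (ENSRNOG00000030515) and Sdr16c6 (ENSRNOG00000040151) are 3 of the 32494 genes listed in the count files, and all 3 passed the filter on low values that left 13302 genes for testing. Nfasc and Sdr16c6 passed it through the whisker samples alone, the side on which the choice made them high. Tfap2b passed through whisker and recovered vaginal samples. Outside whisker, Nfasc and Sdr16c6 lay under the limit of the filter in every sample, so their calls there are a description. The 3 genes were chosen by their measured fold changes against whisker follicle cells, which were far below 1 in bladder, tracheal, vaginal and thymic cells in both rounds of culture. Their levels against whisker cells are therefore given as a description without a test. What was tested is the change of each gene after transplantation, the difference of that change between tissues, and the difference in level between the 4 tissues other than whisker.

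RNA was sequenced from epithelial cells of rats of the line SDTgN (act-EGFP)obsCZ-004 on a Sprague-Dawley background, which express EGFP throughout, in all groups. Bladder (dome) cells were taken at PN201 (PN, postnatal day), tracheal and vaginal cells at PN200, thymic cells at PN137 and whisker cells at PN57. Each was cultured on irradiated 3T3-J2 feeder cells before transplantation (1st round). After transplantation into newborn mouse skin carried by nude mice, the cells were recovered and cultured again (2nd round). In both rounds the cultured cells were sorted on EGFP before RNA was extracted. There were 2 samples in each of the 10 groups, 20 in all. The whisker cells were 1 clone (number 7) before transplantation and 1 subclone (number 14) after it, so clone and transplantation cannot be told apart in them. Frozen stock was the source of the thymic cells, and their 1st round labels give a bulk culture as well as a clone (number 9). Whisker and thymic donors were younger than the others, and in comparisons with them age and tissue cannot be told apart.

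Tfap2b encodes AP-2 beta, a transcription factor of the AP-2 family, whose members bind GC-rich DNA and are known from neural crest, kidney and skin development. Nfasc encodes neurofascin, a cell adhesion molecule of the L1 family that is anchored to ankyrins and is best known from the nodes and initial segments of axons. Sdr16c6 encodes a short-chain dehydrogenase/reductase related to enzymes that oxidise retinol to retinal, the step before retinoic acid is made.

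The promoters are shown because the 3 genes were all chosen for low levels against whisker cells and AP-2 factors bind a known palindrome. Among the 3 genes, 2 matched an entry of the RefSeq promoter table for the GRCr8 assembly, Nfasc with 2 starts and Sdr16c6 with 1, all on the minus strand. The counts themselves were made on Rnor 6.0, and no coordinate was carried from one assembly to the other. Each line gives the 250 bases before the start, 5′ to 3′, and capitals mark the letters TATAA or CCAAT on either strand (ATTGG on the printed strand is CCAAT on the other).
Nfasc, first start, chr13:46701165-46701414: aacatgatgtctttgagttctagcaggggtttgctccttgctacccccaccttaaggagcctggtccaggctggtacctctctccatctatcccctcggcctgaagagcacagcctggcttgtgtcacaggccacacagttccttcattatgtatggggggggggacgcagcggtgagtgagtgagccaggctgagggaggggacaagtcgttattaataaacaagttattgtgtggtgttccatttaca
Nfasc, second start, chr13:46627849-46628098: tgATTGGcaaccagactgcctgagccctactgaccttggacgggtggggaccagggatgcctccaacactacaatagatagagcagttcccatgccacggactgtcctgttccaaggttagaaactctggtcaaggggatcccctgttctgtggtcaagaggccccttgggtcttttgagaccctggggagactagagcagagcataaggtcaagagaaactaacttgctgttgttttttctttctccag
Sdr16c6, chr5:21916289-21916538: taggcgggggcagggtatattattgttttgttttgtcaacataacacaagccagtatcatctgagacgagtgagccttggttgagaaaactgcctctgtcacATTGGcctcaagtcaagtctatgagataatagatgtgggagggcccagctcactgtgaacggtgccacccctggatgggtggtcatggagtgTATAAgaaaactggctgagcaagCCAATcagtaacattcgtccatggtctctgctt

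The Sdr16c6 window held TATAA between 56 and 52 bases before the start, and CCAAT between 33 and 29 bases before it on the printed strand and between 148 and 144 on the other. The window of the second Nfasc start held CCAAT at its far end, 248 to 244 bases before the start, on the strand not printed. The first Nfasc window held neither. GCCNNNGGC, the palindrome that AP-2 factors bind, was found in none of the 3 windows. Over all 33469 windows of this length in the table (27457 genes), 12.59% held GCCNNNGGC, 23.97% TATAA and 34.02% CCAAT, each on at least 1 strand. The GC content was 52.8%, 52.0% and 48.0% in the order printed.

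Reads counted on genes numbered 20723083 to 29824855 in a sample, so that 3 reads in a library, the smallest count taken here as shown, correspond to 0.0990 to 0.143 CPM (the count scaled to library size with TMM). This floor and all intervals below cover counting error only. Within every group the pair of samples differed beyond sampling noise (mean chi-square 2.41 to 40.7 per gene), and none were merged. The epithelial markers Cdh1 and Epcam, the 2 of 6 that could be matched to an identifier, summed to between 999.6 and 2939 CPM in every sample. Reads per gene were not divided by gene length, so levels are compared between samples and never between genes.

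In Tfap2b, a single group outside whisker stood clear of the floor, the recovered vaginal cells. Before transplantation the vaginal samples held 1 and 1 reads of Tfap2b, and after recovery from skin they held 435 together, 234 of them in replicate 2. This is 8.42 and 8.14 CPM in the 2 recovered samples, 8.28 ± 0.196 (SD, n = 2), against 0.0413 ± 0.00429 (SD, n = 2) before. Both recovered samples lay above both earlier ones, and the summed counts gave a ratio of 201.5 (95% exact interval 55.4 to 1669). In these bulk samples, a few cells with much Tfap2b and many cells with little of it cannot be told apart.

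Every other non-whisker group was at or near 0 for Tfap2b. Bladder cells held 1 and 0 reads before transplantation and 0 and 0 after. In tracheal cells 4 and 0 reads were followed by 0 and 0, the 4 reads in 1 sample being the only value above 3 in these 3 tissues. Thymic cells went from 0 and 0 reads to 1 and 1. Against the floor of 3 reads per library, which stands in for the 0 reads of recovered bladder and tracheal cells, recovered vaginal cells were at least 60.9-fold higher than bladder and at least 66.2-fold higher than trachea.

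Whisker cells held 849 and 703 reads of Tfap2b before transplantation, or 34.1 ± 1.67 CPM (SD, n = 2), and 982 and 1266 after, or 48.5 ± 4.67 CPM. The level in recovered vaginal cells was thus 17.1% of that in recovered whisker cells and 24.3% of that in 1st round whisker cells, and no vaginal sample reached any whisker sample.

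**Figure D1:**
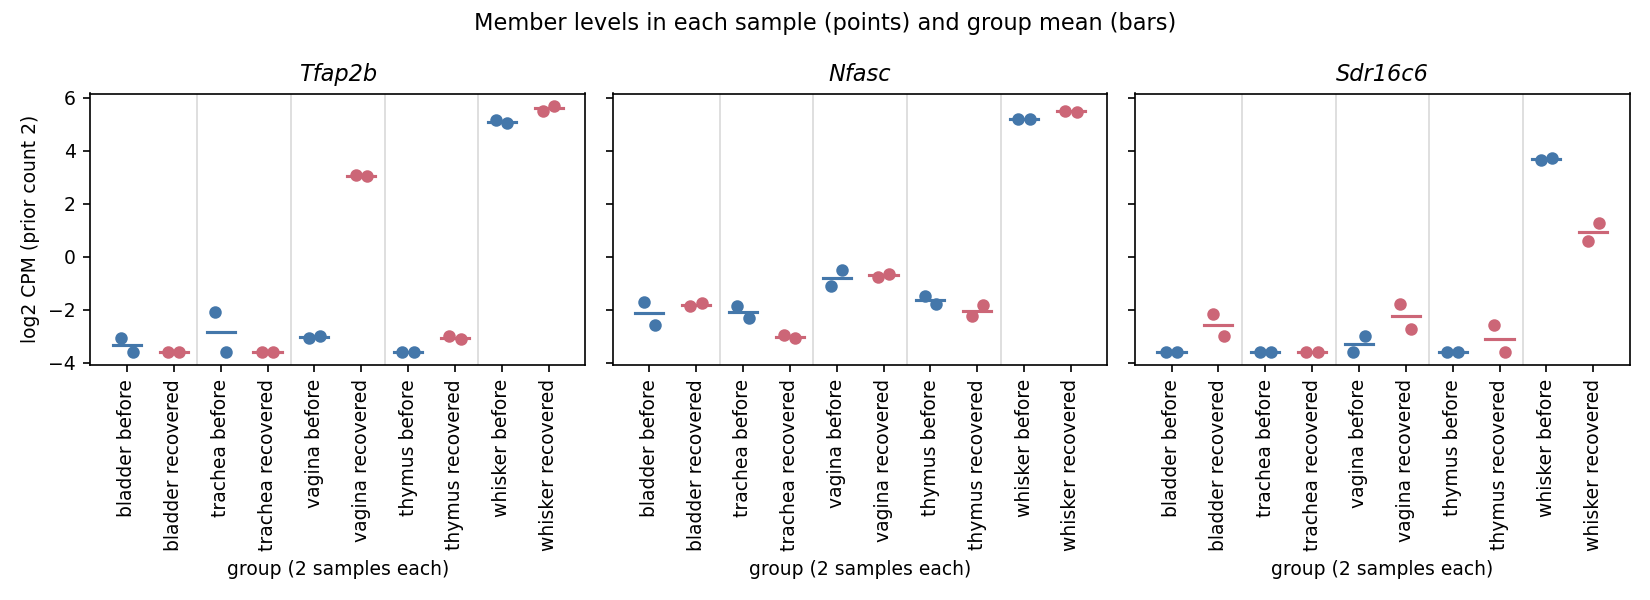
Levels of Tfap2b, Nfasc and Sdr16c6 in log2 CPM (prior count 2) on the vertical axis, by group on the horizontal axis; points are samples (2 per group) and bars are group means, blue before transplantation and red recovered. For Tfap2b the 2 recovered vaginal samples (8.42 and 8.14 CPM) stand between the remaining non-whisker samples near 0 and the whisker samples, whereas Sdr16c6 in whisker cells drops from 12.8 to 1.88 CPM.

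The change of Tfap2b in vaginal cells was a log2 fold change of 7.07 (SE 0.63, limma voom adjusted p = 2.3e-07). Since 1 read per library stood behind the earlier level, the size of this value depends on the count added by the fit. It ranked 2 among the 565 genes that rose at least 2-fold in vaginal cells at an adjusted p under 0.05, the rule by which genes are called below (374 such genes without vagina before replicate 1). In whisker cells the log2 fold change was 0.51 (SE 0.10, limma voom adjusted p = 0.0014), under the 2-fold needed for a call, and the ratio of the counts was 1.42 (95% exact interval 1.33 to 1.52). In bladder and thymus the gene stayed at or under the floor in both rounds and no fold is given. The 4 and 0 reads of the 1st round tracheal cells gave no call either (limma voom adjusted p = 0.22).

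The change of Tfap2b in vaginal cells was then compared with that in each other tissue. In the limma voom fit it exceeded the change in bladder (bladder minus vagina -7.71 on the log2 scale, SE 1.20, adjusted p = 5.4e-05) and the change in trachea (trachea minus vagina -8.60, SE 1.15, adjusted p = 2.2e-05). Over all genes, 25.4% and 17.2% were called in these 2 comparisons. The difference between vagina and thymus was 5.61 (SE 1.15, limma voom adjusted p = 8.6e-04), where 20.4% of genes were called. That call was lost in edgeR's quasi-likelihood test (4.44, adjusted p = 0.93), and the cause of the loss was not tested. Thymic cells had 0 reads before transplantation, so the size of their change is not bounded. The sizes of all 3 differences depend on the count added by the fit, since the other tissues had few reads or 0. In level after recovery, limma voom called vaginal cells above bladder, tracheal and thymic cells (adjusted p = 8.0e-08, 1.2e-07 and 7.7e-08). Of all genes, 19.7%, 13.7% and 19.2% were called in these comparisons. For bladder and trachea, with 0 reads, the bounds above hold in place of a fitted size. Against the 2 reads of recovered thymic cells, the ratio of the counts was 222.6 (95% exact interval 61.3 to 1844).

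No tissue was called higher in Nfasc after transplantation. Whisker cells held 872 and 774 reads (36.3 CPM in both samples) in the 1st round and 995 and 1075 (45.8 and 44.01 CPM) in the 2nd. The change there was 0.31 (SE 0.08, limma voom adjusted p = 0.0081), well under 2-fold, and the ratio of the counts was 1.24 (95% exact interval 1.16 to 1.32). Vaginal cells held 10 and 14 reads before transplantation and 12 and 16 after. Their level was 0.501 ± 0.168 CPM (SD, n = 2) and then 0.530 ± 0.038, which is 1.38% and 1.18% of that of whisker cells of the same round, and the samples of the 2 rounds overlapped. The change was 0.13 (SE 0.37, limma voom adjusted p = 0.81) with a count ratio of 1.08, whose interval of 0.604 to 1.95 lies below a 2-fold gain.

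In the remaining tissues, Nfasc lay within a few reads of the floor. Bladder cells held 6 and 2 reads before and 4 and 5 after transplantation (ratio 1.27, 0.435 to 3.79). Thymic cells went from 7 and 5 reads to 3 and 6 (ratio 0.687, 0.256 to 1.78). In tracheal cells 5 and 3 reads were followed by 1 and 1 (ratio 0.261, 0.0270 to 1.31). The intervals for thymus and trachea take in a 2-fold fall and that for bladder a 2-fold change either way, so changes of that size are not excluded. None of the changes was called (log2 fold changes 0.46 in bladder, -0.53 in thymus and -1.49 in trachea, limma voom adjusted p = 0.47, 0.39 and 0.059), although the fall in trachea was called when the low-count filter was left off (-1.48, adjusted p = 0.027).

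Among the 4 non-whisker tissues, vaginal cells ranked highest in Nfasc in both rounds. After recovery they exceeded tracheal cells (trachea minus vagina -3.16 on the log2 scale, SE 0.55, limma voom adjusted p = 0.00021), thymic cells (vagina minus thymus 1.60, adjusted p = 0.0052) and bladder cells (bladder minus vagina -1.29, adjusted p = 0.019). Over all genes, 13.7%, 19.2% and 19.7% were called in these comparisons. The difference from bladder was lost without bladder recovered replicate 1 (adjusted p = 0.090), without bladder recovered replicate 2 (0.070) and without vagina recovered replicate 2 (0.072). Recovered tracheal cells, at the bottom, were below recovered bladder cells (bladder minus trachea 1.87, adjusted p = 0.014, 18.3% of all genes called) and thymic cells (trachea minus thymus -1.55, adjusted p = 0.038, 18% called), with 2 reads in all behind their level. The former call was lost in DESeq2 (adjusted p = 0.074), without bladder recovered replicate 2 (0.055) and without trachea recovered replicate 2 (0.098), and the latter in edgeR (0.072), in DESeq2 (0.12), without either tracheal replicate (0.087 and 0.18) and without thymus recovered replicate 2 (0.19). Bladder and thymus, next to each other in the order, were not called apart (0.32, limma voom adjusted p = 0.63, 16.4% of all genes called). In the 1st round vaginal cells exceeded bladder cells (bladder minus vagina -1.61, limma voom adjusted p = 0.0060) and tracheal cells (trachea minus vagina -1.54, adjusted p = 0.0088), against 25.6% and 18.8% of all genes called. The first was lost without bladder before replicate 2 (adjusted p = 0.086) or vagina before replicate 2 (0.051), the second without trachea before replicate 2 (0.079) or vagina before replicate 2 (0.071). Thymic cells stood between them and were called apart from none of the 3 in that round, except from vaginal cells once vagina before replicate 1 was left out (vagina minus thymus 1.33, adjusted p = 0.038). Over all genes, 17% were called between vaginal and thymic cells in the 1st round, 27.2% between bladder and thymic, 20.3% between tracheal and thymic and 15.5% between bladder and tracheal cells.

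Sdr16c6 was the 1 member that fell in whisker cells. Whisker samples held 297 and 282 reads before transplantation and 31 and 57 after, that is 12.4 and 13.2 CPM against 1.43 and 2.33 CPM. The 2 rounds did not overlap, and the recovered level of 1.88 ± 0.641 CPM (SD, n = 2) was 14.7% of the earlier 12.8 ± 0.611. The log2 fold change was -2.77 (SE 0.25, limma voom adjusted p = 8.4e-07), rank 84 among the 509 genes that fell, and the ratio of the counts was 0.149 (95% exact interval 0.118 to 0.187).

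Outside whisker, Sdr16c6 was read at most 5 times in any sample. Vaginal cells held 0 and 1 reads before transplantation and 5 and 2 after, with the 5 reads of 1 recovered sample as the only value above 3. The ratio of these counts was 6.48, with an interval of 0.833 to 292 that includes 1, and the change was not called (1.98, SE 0.92, limma voom adjusted p = 0.10). Leaving out vagina recovered replicate 2, the lower of the pair, gave a call (2.73, adjusted p = 0.049). Bladder cells held 0 and 0 reads and then 3 and 1. Here limma voom did give a call (log2 fold change 2.35, SE 0.98, adjusted p = 0.0496), but both groups lay at or under the floor, so no fold is read from it. The call did not hold in edgeR (adjusted p = 0.085), in DESeq2 (0.053) or with DESeq2 size factors (0.052), nor without either bladder before replicate or without bladder recovered replicate 1 (adjusted p = 0.16, 0.13 and 0.27). Thymic cells held 0 and 0 reads, then 2 and 0, and tracheal cells held 0 in all 4 samples. Recovered vaginal cells were called above recovered tracheal cells (trachea minus vagina -2.74, SE 0.94, limma voom adjusted p = 0.027), with 7 reads against 0. In this comparison 13.7% of all genes were called. The call on Sdr16c6 was lost in edgeR (adjusted p = 0.053). It was also lost without either tracheal replicate (-2.92 and -2.55) or without vagina recovered replicate 1 (-2.07).

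Counted over the 3 genes, 1 was called higher and 0 lower in vaginal cells by limma voom, where 4.25% of all genes tested rose and 7.53% fell. In bladder cells 1 of 3 was called higher (Sdr16c6, on 4 reads), against 10.1% of all genes higher and 11% lower. Neither trachea nor thymus had a call among the 3, with 4.39% of all genes higher and 8.04% lower in trachea and 8.49% higher and 6.89% lower in thymus. In whisker cells 1 of 3 was called lower, against 3.83% of all genes lower and 2.15% higher. Of the 3, Tfap2b was therefore the sole gene gained above the floor in both samples of any tissue, and vagina the sole tissue in which that was seen.

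**Figure D2:**
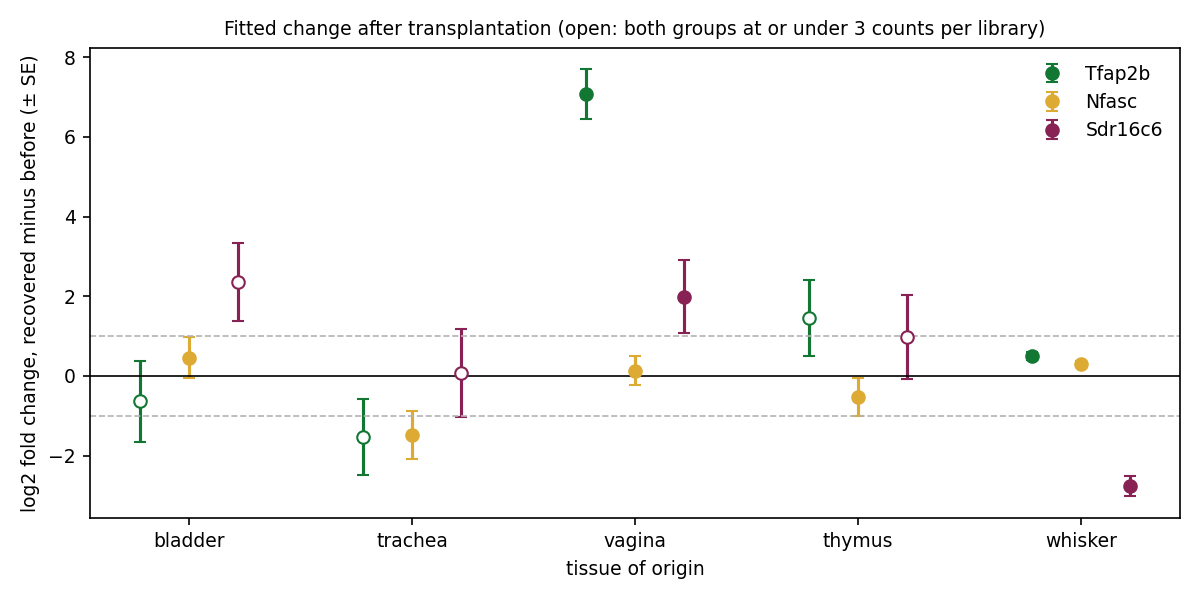
Fitted log2 fold change, recovered minus before, of the 3 genes (vertical axis) in each tissue (horizontal axis), with standard errors as bars from the limma voom fit and dashed lines at 2-fold; open points are comparisons in which both groups averaged at most 3 reads per library. Tfap2b in vagina (7.07) stands apart upwards and Sdr16c6 in whisker (-2.77) downwards, while Nfasc stays between -1.49 and 0.46.

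The genes whose pattern over the 20 samples was most like that of each member were sought among 1499 named genes with a mean of at least 5 CPM in at least 1 group. The measure was Pearson's r of log2 CPM, given as a description since all samples share the same normalization and the whisker samples weigh heavily in it. Nearest to Tfap2b were Ntrk3, the receptor of neurotrophin 3 (r = 0.96), Il1f10, a member of the interleukin 1 family (0.93), Fam132a (0.92), Cyth2, an exchange factor for small GTPases (0.92), and Chl1, an adhesion molecule of the L1 family like neurofascin (0.92). Nearest to Nfasc were Asb15 (0.93), Sdr16c6 (0.93), Rbm20, a splicing factor (0.93), Ntrk3 (0.92) and Fam188b (0.92). Nearest to Sdr16c6 were Kng2, a kininogen (0.95), Il1f10 (0.95), Lgr4, a receptor of R-spondins (0.93), Kctd15 (0.93) and Nfasc (0.93). By Spearman's rho only 1 of the 5 nearest genes was shared for Tfap2b and 0 for each of the others.

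The vaginal samples were among those on which these genes were chosen, so their values there are a description and no support for a shared pattern. Il1f10 went from 0.0443 to 0.980 CPM (log2 fold change 4.46), Chl1 from 0.391 to 7.09 CPM (4.12), Fam132a from 2.52 to 17.2 CPM (2.81) and Ntrk3 from 0.181 to 1.13 CPM (2.46) in vaginal cells, and Cyth2 stayed under 2-fold (0.65). The earlier level of Il1f10 rested on 2 reads, and its change ranged from 3.14 to 5.69 with 1 replicate left out. Of the genes nearest to Tfap2b, Ntrk3 was also called higher in thymic cells (2.53), on 1 read before transplantation and 10 after over both samples. Il1f10 was called higher in bladder cells (3.16), on 0 reads before and 8 after. The sizes of both changes depend on the count added by the fit, and Tfap2b was not gained in either tissue. Of the genes nearest to Sdr16c6, Kng2 went from 0.0856 to 0.802 CPM in vaginal cells (3.14), with 4 reads behind the earlier level. In whisker cells Kng2 went from 55.0 to 3.28 CPM (-4.09). Il1f10 (-2.09) and Lgr4 (-1.72) were also lower in recovered whisker cells, as Sdr16c6 was. Asb15, the gene nearest to Nfasc, had 0 reads in all 4 vaginal samples.

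**Figure D3:**
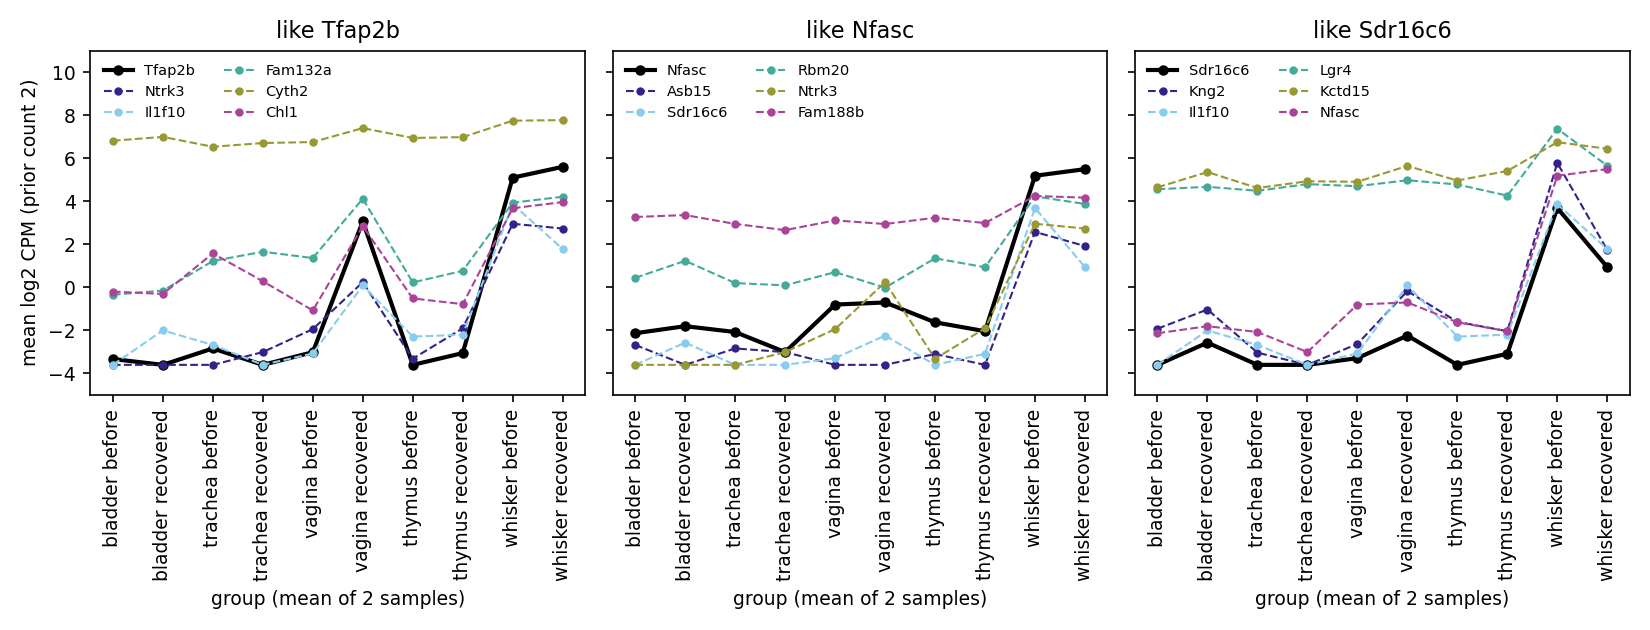
Mean log2 CPM (prior count 2) per group of each member (black) and the 5 named genes most like it by Pearson's r over 20 samples (coloured, dashed), with groups on the horizontal axis and n = 2 per point; values are not per length, so shapes and not heights are to be compared between genes. The Tfap2b panel shows a peak at recovered vagina also for Chl1, Fam132a, Ntrk3 and Il1f10, which were chosen on these same samples, so this is a description. In the Nfasc panel this peak is missing for Nfasc itself and Asb15.

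Set against recovered whisker cells, recovered vaginal cells held very different portions of these genes. The portion was 17.1% for Tfap2b, 7.42% for Sdr16c6 and 1.18% for Nfasc. For Sdr16c6 the fall in whisker cells enters this value, and against 1st round whisker cells it was 1.09%. Fam132a reached 93.7% of the level in recovered whisker cells, Cyth2 77.2%, Lgr4 62.3%, Kctd15 57.5%, Chl1 45.8% and Fam188b 42.4%, whereas Il1f10 was at 28.9%, Kng2 at 24.4%, Ntrk3 at 16.7% and Rbm20 at 6.57%. Lgr4, Il1f10 and Kng2 had also fallen in whisker cells, and against 1st round whisker cells they stood at 18.9%, 6.77% and 1.46%.

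**Figure D4:**
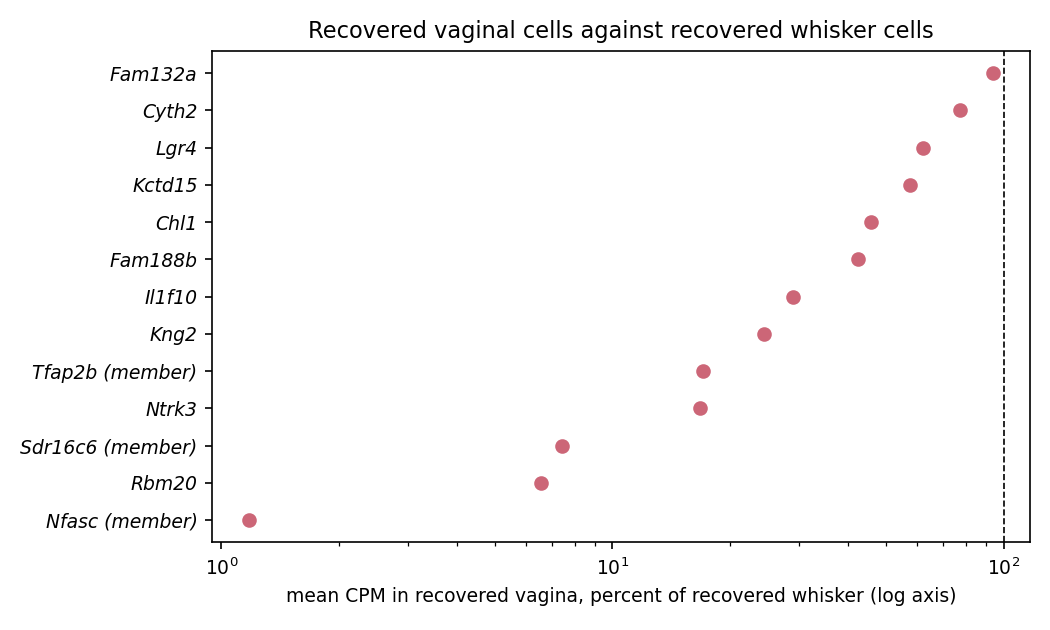
Mean CPM in recovered vaginal cells as a percent of that in recovered whisker cells (log axis), for the 3 members and the named genes most like them, n = 2 samples on each side; the dashed line marks 100%. Members range from 1.18% (Nfasc) over 7.42% (Sdr16c6) to 17.1% (Tfap2b), and Asb15, with 0 reads in vaginal cells, cannot be drawn.

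Around each member, genes of its own pathway were followed as far as identifiers could be matched to names. These names come from lists of genes that differ from whisker cells, so the matched genes are not a random part of each pathway. Of 9 AP-2 factors and partners, 4 could be followed. In vaginal cells 1 of the 4 rose, Tfap2b itself, and 0 fell, against 4.25% and 7.53% of all genes. Kctd15, which inhibits AP-2 activity, went from 29.9 to 49.9 CPM there (0.74, limma voom adjusted p = 4.2e-07), under the 2-fold limit. Cited2 and Cited4, which are co-activators of AP-2, were not called in vaginal cells (-0.11 and -0.78). Cited4 was called higher in thymic cells (1.72, adjusted p = 0.034), a call that did not hold without thymus before replicate 2 (0.97, adjusted p = 0.25), without thymus recovered replicate 1 (adjusted p = 0.061), without thymus recovered replicate 2 (adjusted p = 0.13) or without the low-count filter (adjusted p = 0.053). The median log2 fold change of the 4 in vaginal cells was 0.32, beside -0.0055 over all genes.

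In the L1 family with its ankyrin partners, 7 of 15 genes could be followed. In vaginal cells 1 rose, Chl1 (4.12, SE 0.42, limma voom adjusted p = 1.1e-06), and 1 fell, Cntnap1, a partner of neurofascin at the axon (-1.95, SE 0.14, adjusted p = 2.5e-08). Nfasc and its close relative Nrcam stayed uncalled there, the latter at 0.429 and 0.565 CPM. In bladder cells 0 rose and 2 fell, Nrcam from 15.2 to 0.509 CPM (-4.85) and Epb41l3 (-2.93), and in tracheal cells Cntnap1 rose (1.04) while Chl1 (-1.34) and Epb41l3 (-1.93) fell. Of all genes, 10.1% rose and 11% fell in bladder cells, 4.39% and 8.04% in tracheal cells and 4.25% and 7.53% in vaginal cells. Thymic and whisker cells had 0 calls among the 7. There 8.49% of all genes rose and 6.89% fell in thymus, and 2.15% and 3.83% in whisker. With 7 genes, these counts are not read as a result about the family. Medians lay between -1.07 in trachea and 0.26 in whisker.

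In retinoid metabolism, 10 of 32 genes could be followed, Sdr16c6 among them. Whisker cells had 0 calls higher and 2 lower, Sdr16c6 and Aldh1a3, which makes retinoic acid from retinal and went from 56.4 to 3.73 CPM (-3.92, SE 0.23, limma voom adjusted p = 7.3e-09). Vaginal cells had 1 higher and 4 lower. The gene that rose was Cyp26b1, which breaks down retinoic acid (1.41, SE 0.11, adjusted p = 5.9e-08). Those that fell were Dhrs3, which reduces retinal to retinol (-1.82), the retinoic acid carrier Crabp2 (-1.50) and the retinal dehydrogenases Aldh1a1 (-1.13) and Aldh1a3 (-1.94). Bladder cells had 4 higher and 3 lower (10.1% and 11% over all genes), tracheal cells 3 and 1 (4.39% and 8.04%), and thymic cells 4 and 3 (8.49% and 6.89%). For vaginal cells the shares over all genes were 4.25% and 7.53%, and for whisker cells 2.15% and 3.83%. Aldh1a3 fell in bladder (-3.31), trachea (-1.14), vagina and whisker and rose in thymus (1.88), so that it shared its direction with Sdr16c6 in whisker cells. Medians ranged from -0.50 in whisker to 0.84 in thymus, beside medians over all genes between -0.0055 and 0.017.

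**Figure D5:**
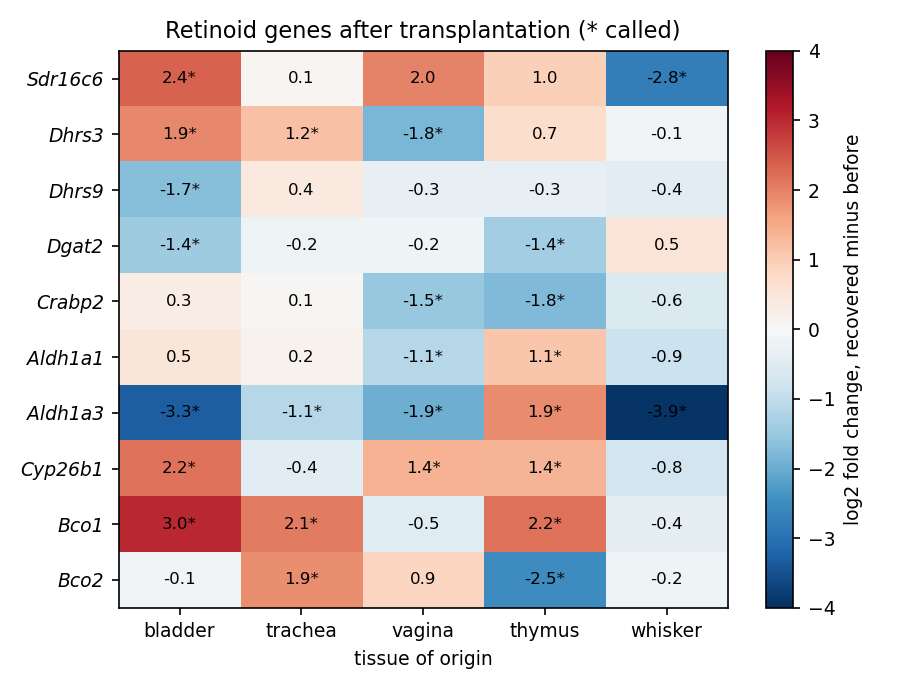
Log2 fold change, recovered minus before (colour scale and printed values), of the 10 retinoid genes that could be followed (rows) in each tissue (columns), with an asterisk for calls by limma voom at an adjusted p under 0.05 and 2-fold. The whisker column has asterisks at Sdr16c6 (-2.77) and Aldh1a3 (-3.92) alone, and the asterisk of Sdr16c6 in bladder rests on 4 reads.

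Markers of the tissues and of other cell types were read in the same samples. Krt4, a keratin of the vaginal lining, went from 652.4 to 15.3 CPM in vaginal cells (-5.42) and Esr1, the estrogen receptor, from 18.9 to 0.725 CPM (-4.67), both called lower. The sum of Krt4 and Esr1, the 2 of 3 vaginal markers that could be followed, was 15.5 to 16.5 CPM in recovered vaginal samples, below the 274.5 to 304.9 CPM of recovered bladder, the 229.0 to 238.2 CPM of recovered trachea and the 911.4 to 969.1 CPM of recovered thymus. Krt4 was called higher in thymic (4.47) and bladder cells (3.13) after transplantation. These markers thus go against the label of the recovered vaginal cells, the group in which Tfap2b was gained, relative to recovered bladder, trachea and thymus. Relative to recovered whisker cells, where the sum was 0.573 to 1.15 CPM, they were higher in recovered vaginal cells. Upk1b, a uroplakin, fell in vaginal cells from 38.0 to 0.450 CPM (-6.34) and Cd68, a macrophage marker and the 1 of 5 immune and endothelial markers followed, from 61.4 to 15.7 CPM (-1.98), while Cd68 rose in bladder (1.94) and trachea (2.32). Isl1, which had at most 1 read per sample in whisker cells, stood at 7.84 CPM in vaginal cells before transplantation and 5.49 CPM after. Fibroblast markers, of which 3 of 6 could be followed, summed to 24.9 to 28.6 CPM before and 21.4 to 24.2 CPM after transplantation in vaginal samples, and 0 of the 3 were called there. Where Tfap2b was not gained, the same sum went from 189.1 to 245.6 CPM, to 25.0 to 27.5 CPM in bladder and from 258.1 to 264.5 CPM, to 35.5 to 41.2 CPM in trachea, but went from 19.4 to 19.6 CPM, to 34.4 to 37.9 CPM in thymus. The part of these markers in the values of Tfap2b was not tested. For Schwann cells, melanocytes and neurons, cell types that can express members of this trio, 0 markers could be matched, and their part in these values was not tested.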

How the data were processed

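The deposited files hold raw counts per gene of 20 samples. The authors trimmed the reads with cutadapt 1.8, aligned them with STAR 2.5.2b to Rnor 6.0 and counted them per Ensembl gene with HTSeq 0.6.1, leaving reads with several alignments uncounted (11601894 to 19374286 alignments per sample). The kit marks strand, and the strand setting of the counting is not given in the sources used here.

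From these counts, CPM with TMM scaling was computed in edgeR 4.0.16. The genes that reached 1 CPM in 1 or more samples entered limma voom (limma 3.58.1, R 4.3.3), fitted as a single model of 10 group means with 10 residual degrees of freedom. TMM, voom and the filter follow the methods of the study, and the single model was chosen here. Benjamini-Hochberg adjustment ran over all 13302 genes of a comparison, and calls needed an adjusted p under 0.05 and a 2-fold change. A prior count of 2 was used for log2 CPM. Count ratios have exact binomial 95% intervals. The fit was tested on simulated data. As alternatives served size factors or the Wald test from DESeq2 1.42.0, edgeR's quasi-likelihood test, no filter, a filter of 10 counts in 2 samples, a replicate block, fits of the compared groups only and leaving out each replicate.

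The 3 genes and all lists were chosen with earlier results of these data known. Named are the 3 genes, the genes of the lists and, for each of the 3, the 5 named genes most like it. Naming the neighbours of each gene on the chromosome was also intended, but they are not analysed here. Symbols were taken from the 2311 identifiers that the study's supplementary lists pair with a name. With them, 35 of the 117 list genes could be followed, and 0 markers of Schwann cells, melanocytes, neurons and trachea. The label of each tissue was checked against Cdh1 and Epcam and, where matched, a marker of the tissue. The vaginal markers went against the label of the recovered vaginal cells relative to recovered bladder, trachea and thymus, but not relative to recovered whisker cells. The study sequenced the 2 samples with the best RNA of each group. Nothing says that they came from separate animals, so p-values measure only the spread between these samples, which may be technical. An exact permutation test of 2 against 2 samples cannot go below p = 0.33.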

Additional observations from a re-analysis of the deposited data

Results flagged for a closer look

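The change of Tfap2b after transplantation differed between tissues in 3 of 6 pairs of non-whisker tissues, by the limma voom test of the difference itself. It was -7.71 for bladder minus vagina (SE 1.20, adjusted p = 5.4e-05), -8.60 for trachea minus vagina (SE 1.15, adjusted p = 2.2e-05) and 5.61 for vagina minus thymus (SE 1.15, adjusted p = 8.6e-04). All 3 rest on the 435 reads of the 2 recovered vaginal samples, against at most 4 reads in any other non-whisker sample. They also share the vaginal samples and are not independent of each other. The sizes depend on the count added by the fit, and the difference from thymus was not called by edgeR (4.44, adjusted p = 0.93).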

How the results depend on the processing

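The gain of Tfap2b in vaginal cells kept its call under every alternative run (log2 fold change 6.95 to 7.64), and so did the fall of Sdr16c6 in whisker cells (-3.14 to -2.45). Calls on Nfasc and on Sdr16c6 outside whisker rest on few reads. They moved, except for recovered Nfasc trachea minus vagina (-3.69 to -2.96) and vagina minus thymus (1.37 to 1.90). Both of these held in every alternative that gave a value. Where nothing else is said, the cause of a move was not tested. In edgeR's quasi-likelihood test, calls were lost for Tfap2b vagina minus thymus (4.44, adjusted p = 0.93), Sdr16c6 in bladder (4.23), recovered Sdr16c6 trachea minus vagina (-4.76) and recovered Nfasc trachea minus thymus (-1.90), and the sign turned, with no call in either fit, for the Sdr16c6 change vagina minus thymus (-0.62) and for 1st round Nfasc bladder minus trachea (0.023). In DESeq2, calls were lost for Sdr16c6 in bladder (3.59) and for recovered Nfasc trachea minus thymus (-2.02) and bladder minus trachea (2.32), and 1st round Nfasc bladder minus trachea again turned (0.029). DESeq2 size factors lost the Sdr16c6 call in bladder (2.33). Without the low-count filter, Nfasc was called in trachea (-1.48) and for the change bladder minus trachea (1.95), and Cited4 lost its call in thymus (1.71). Without TMM the CPM of recovered vaginal Tfap2b was 7.96 and that of Nfasc in whisker cells 35.5 and 43.2, and with DESeq2 size factors 1st round whisker Nfasc was 36.4. These levels moved by more than the SD of 2 close samples. A fit of the compared groups only gave no value for genes that its filter removed, such as Nfasc and Sdr16c6 in the comparisons without whisker cells.

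Leaving out each replicate in turn, the changes ranged from -0.11 to 1.06 for Nfasc in bladder, from -0.24 to 0.45 for Nfasc in vagina, from 1.68 to 3.05 for Sdr16c6 in bladder and from 1.04 to 2.85 for Sdr16c6 in vagina. The differences of change ranged from 1.39 to 2.56 (Nfasc, bladder minus trachea), from -0.24 to 0.93 (Nfasc, bladder minus vagina), from -0.50 to 1.30 (Sdr16c6, bladder minus vagina) and from -0.38 to 2.30 (Sdr16c6, vagina minus thymus). The levels of Nfasc in the 1st round ranged from -0.68 to 0.48 for bladder minus trachea, from -2.22 to -1.04 for bladder minus vagina, from -1.90 to -1.21 for trachea minus vagina and from 0.62 to 1.33 for vagina minus thymus. After recovery they ranged from 1.66 to 2.03 for bladder minus trachea, from -1.36 to -1.22 for bladder minus vagina and from -1.79 to -1.26 for trachea minus thymus. Those of Sdr16c6 ranged from -1.18 to 0.27 for bladder minus vagina, from -3.49 to -2.07 for trachea minus vagina and from 0.40 to 3.08 for vagina minus thymus. The count of genes that rose in vaginal cells ranged from 374 to 568.

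The labels number the 2 samples of each group, and the replicate block used these numbers. Deviations of same-numbered samples correlated between -0.12 and 0.24 over 45 pairs of groups (median 0.019), and 10 pairs exceeded 0.1. Whether same-numbered samples of some groups were handled together cannot be told from these values. With the replicate block, 579 genes rose and 1016 fell in vaginal cells against 565 and 1002 without it, and Tfap2b changed by 7.08 on the log2 scale against 7.07. The block changed no call among the results given here.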

Other observations

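Of 15 genes of hair follicle cells, 4 could be followed. In vaginal cells 1 rose, Tbx1 (log2 fold change 2.56), and 2 fell, Cd34 (-3.69) and Edar (-1.79), while Dlx3, a regulator of hair differentiation, had a log2 fold change of 0.99 and was not called. In bladder cells 3 rose, Dlx3 (3.26), Edar (2.34) and Tbx1 (1.05), and 1 fell, Cd34 (-4.61), by limma voom. Over all genes, 4.25% rose and 7.53% fell in vaginal cells and 10.1% and 11% in bladder cells. In thymic cells Edar (1.28) and Tbx1 (1.22) rose, in tracheal cells Dlx3 rose (1.95) and Tbx1 fell (-2.64), and in whisker cells Dlx3 fell (-1.08), where the shares over all genes were 8.49% and 6.89% in thymus, 4.39% and 8.04% in trachea and 2.15% and 3.83% in whisker. Recovered vaginal cells held 12.8% of the Tbx1, 59.0% of the Edar (0.505 against 0.857 CPM) and 135.2% of the Dlx3 of recovered whisker cells. For Cd34 no percent is given. Recovered whisker cells stood at 0.0460 CPM of it, under the floor of 3 reads, against 0.352 CPM in recovered vaginal cells. In recovered bladder and thymic cells Tfap2b stood at no more than 1 read per sample. A link between Tfap2b and these hair follicle genes was not tested.

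Upk1b, a uroplakin of the bladder lining, stood at 179.0 CPM in bladder cells before transplantation and 137.8 CPM after, and it was also present in 1st round thymic (144.1 CPM) and tracheal cells (131.0 CPM). Isl1, a marker of thymic epithelium, stood at 14.2 and 18.0 CPM in thymic cells of the 2 rounds and at 12.4 and 9.86 CPM in tracheal cells.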
